A study of Homo sapiens with 18 samples.

Results

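Genes of blood vessel signalling, 10 in number, were followed in hiF-T, a human cell line that descends from BJ skin fibroblasts and keeps a fibroblast-like form. They comprised the vascular endothelial growth factor (VEGF) ligands VEGFA, VEGFC and PGF, the VEGF receptor FLT1, the co-receptors NRP1 and NRP2, the angiopoietin ANGPT1 with its receptor TEK, and the endothelin EDN1 with its receptor EDNRA. These 10 genes were chosen by their function, with their estimated counts summed by group and by guide already known, so their differences between groups and between guides are given as a description. All 10 were among the 13519 genes that passed the filter on low counts, of 35544 genes with transcripts in the tables.

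Polyadenylated RNA was sequenced in 18 libraries, each from cells with 1 CRISPR guide. The control group (4 libraries, guides 1 and 2) carried a control guide in a construct titled backbone, and the other groups carried guides against CDKN1A (4 libraries, guides 1 and 2), KDM1A (4 libraries, guides 2 and 3) or SPP1 (6 libraries, guides 1, 2 and 3). Each guide had biological replicates 1 and 2. CDKN1A encodes a cyclin-dependent kinase inhibitor, KDM1A a histone lysine demethylase, and SPP1 the secreted protein osteopontin. All groups shared the WT genotype label and a telomerase (hTERT) transgene that can be induced, and all came from the same line. The origin of the replicates (separate cultures, or 1 culture divided) and the way the guides lower their targets were not given in the sources used here. P-values therefore measure the spread between these libraries, which may be technical, and mRNA does not measure the protein left. In such bulk RNA, fewer cells that express a gene and less RNA per cell cannot be told apart.

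VEGF ligands act through receptor tyrosine kinases on endothelial cells. FLT1 binds VEGFA and PGF, and its shorter transcripts encode secreted receptors that capture these ligands away from the cell, while neuropilins bind both VEGF ligands and class 3 semaphorins. ANGPT1, made by cells that surround vessels, activates TEK on the endothelium, and EDN1 is a constrictor peptide that acts on EDNRA of smooth muscle and fibroblasts. Fibroblasts are best known here as a source of ligands, and FLT1 and TEK as receptors of endothelial cells.

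FLT1 differs between transcripts in how its coding sequence ends, and this decides between the membrane receptor and the secreted forms, so the ends are shown. The coding sequence of the full-length transcript FLT1-201 is 4017 bases long. In FLT1-202, FLT1-204, FLT1-207 and FLT1-209 the shared coding sequence stops after 1551, 2116, 1969 and 1969 bases and continues into 75, 86, 95 and 29 bases of their own. The lines give the last 12 shared bases in lower case, then the transcript's own bases to the stop codon in capitals, from the minus strand of GRCh38 with GENCODE 29 at chr13:28399044-28399118, chr13:28368578-28368663, chr13:28389701-28389795 and chr13:28389604-28389632.
FLT1-202: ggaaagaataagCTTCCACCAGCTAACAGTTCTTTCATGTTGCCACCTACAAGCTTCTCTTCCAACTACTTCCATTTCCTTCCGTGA
FLT1-204: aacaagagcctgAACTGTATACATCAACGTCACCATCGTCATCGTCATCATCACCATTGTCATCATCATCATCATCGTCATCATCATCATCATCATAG
FLT1-207: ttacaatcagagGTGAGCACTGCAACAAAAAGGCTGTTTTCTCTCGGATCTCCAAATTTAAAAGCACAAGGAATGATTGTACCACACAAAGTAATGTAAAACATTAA
FLT1-209: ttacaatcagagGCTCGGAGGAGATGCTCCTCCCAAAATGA

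EDN1 and FLT1 had the largest decreases among the genes that were called, so the 250 bases before their RefSeq start are shown (GRCh38.p14; EDN1 chr6:12290111-12290360 on the plus strand, FLT1 chr13:28495129-28495378 on the minus strand). Motifs were searched on both strands, and their matches are in capitals. The AP-1 motif TGANTCA was present in 6.57% of 35116 promoters of this length, the hypoxia response core ACGTG in 18.5%, the GATA core GATAA in 20.4% and the TATA box TATAAA in 10.7%. In the EDN1 window the TATA box began 31 bases before the start, the hypoxia response core 123 bases and the GATA core 136 bases before it, both of these as the reverse complement. The FLT1 window held a TATA box 31 bases before the start. The windows of VEGFC, PGF, NRP2, TEK and EDNRA held none of these letters, and a match or its lack says nothing here about binding.
EDN1: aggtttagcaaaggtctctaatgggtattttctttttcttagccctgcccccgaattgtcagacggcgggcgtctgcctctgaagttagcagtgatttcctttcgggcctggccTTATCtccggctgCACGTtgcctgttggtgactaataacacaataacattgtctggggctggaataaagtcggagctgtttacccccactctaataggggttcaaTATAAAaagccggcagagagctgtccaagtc
FLT1: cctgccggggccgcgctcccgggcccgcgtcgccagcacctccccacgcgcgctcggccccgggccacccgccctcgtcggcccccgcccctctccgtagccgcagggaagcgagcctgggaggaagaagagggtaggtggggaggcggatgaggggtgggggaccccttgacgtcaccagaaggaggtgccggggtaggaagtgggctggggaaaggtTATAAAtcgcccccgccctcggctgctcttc

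In the control libraries, levels per transcript length (TPM, a transcripts-per-million scale) ran from NRP1 at 189 ± 11.4 (SD, n = 4), through VEGFC at 149 ± 9.68, EDN1 at 104 ± 5.95, PGF at 76 ± 10 and ANGPT1 at 52.4 ± 9.52, to a group of TEK at 29.7 ± 2.32, NRP2 at 27.8 ± 2.21 and VEGFA at 25.2 ± 3.29. FLT1 followed at 3.6 ± 0.452 TPM and EDNRA at 1.05 ± 1.36 TPM. TEK, NRP2 and VEGFA overlapped in this order, while each gene above TEK differed from its neighbour by more than their spread. Per length, the cells held more mRNA of the ligands VEGFC, EDN1 and PGF and of the co-receptor NRP1 than of the kinase receptor FLT1 or the endothelin receptor.

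Each library held 11907197 to 17016094 estimated counts. The targeted genes were lower under most of their guides: relative to both control guides, the mRNA left was 46.3% and 70.6% for CDKN1A, 62.6% and 43.4% for KDM1A (guides 2 and 3), and 39.6%, 79.7% and 66.8% for SPP1 (guides 1 to 3). As groups, CDKN1A and KDM1A were called lower under their own guides, and SPP1 was not (-0.7 ± 0.22, adjusted p = 0.0696). The targets also differed under guides against other genes: CDKN1A mRNA was at 75.6 to 84.4% of control with each KDM1A and SPP1 guide (not called for either group, adjusted p = 0.112 and 0.116), and SPP1 mRNA at 160 to 209% with each CDKN1A and KDM1A guide (called for KDM1A guides at 0.00793, not for CDKN1A guides at 0.0645). SPP1 read 63.0 CPM (a counts-per-million scale after TMM normalization, used for all levels of a gene between groups) in replicate 1 of its guide 3, inside the control range of 55.2 to 72.7 CPM. Replicate 2 of that guide read 21.7 CPM. With SPP1 guide 2, replicate 2 read 55.3 CPM, also inside the control range, and replicate 1 read 47.4 CPM. The SPP1 log2 fold change of guide 2 was -0.33 ± 0.24. Of 15 fibroblast markers 14 had 10 counts or more in some library, and their summed level was 35200 to 37400 CPM in the controls, 30700 to 33800 CPM with CDKN1A guides (below every control), 31000 to 37400 CPM with KDM1A guides and 30600 to 36700 CPM with SPP1 guides, although THY1 was near 0 (0.0849 CPM in the controls). Of the 14 that were tested, 4 rose with KDM1A guides, the matrix genes LUM (3.79 ± 0.29, adjusted p = 1.75e-07), COL3A1 (2.85 ± 0.27, 2.04e-06) and DCN (1.9 ± 0.33, 0.00111) and the receptor PDGFRB (0.51 ± 0.15, 0.0333); COL3A1 alone rose with SPP1 guides (1.1 ± 0.26, 0.0218), and none was called with CDKN1A guides. The part of these markers in the results below was not tested. The 13 endothelial markers summed to 6.61 to 9.96 CPM with overlapping ranges in all groups, and CDH5 and VWF read 0.0714 and 0.257 CPM in the controls. Of these 13, 7 had 10 counts or more in some library, and EMCN, EGFL7, TIE1 and ROBO4 stood at 1.8, 1.75, 1.71 and 1.55 TPM in the controls, below FLT1 but of its order; none of the 5 that were tested was called against control. The 3 lymphatic endothelial markers stayed at 0.136 to 0.975 CPM, 5 melanocyte markers at 0.666 to 1.79 CPM, 7 keratinocyte markers at 52.2 to 69.2 CPM (nearly all KRT10, with KRT1 at 0 in every library) and 6 leukocyte markers at 50.8 to 73.4 CPM (nearly all CD68).

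Against control, EDN1 fell with the CDKN1A and SPP1 guides, FLT1 fell with the KDM1A and SPP1 guides, TEK fell and NRP1 rose with the SPP1 guides, and ANGPT1 rose with the KDM1A guides. A gene was called when its adjusted p in edgeR's quasi-likelihood test was under 0.05 over all genes tested. The call was made for 1 of the 10 genes with CDKN1A guides (1 down), where 2.00% of all genes were called, for 2 with KDM1A guides (1 up, 1 down), where 9.06% were called, and for 4 with SPP1 guides (1 up, 3 down), where 5.46% were called. Nothing is read from these counts, since the genes were chosen with these values known. Their median log2 fold changes were 0.04, -0.03 and -0.1, beside -0.004, -0.011 and 0.004 for all genes. The 3 comparisons share the 4 control libraries, and each group holds only 2 or 3 guides. How many of all genes had every library of a group above or below the controls was not counted. Such separations are therefore given as descriptions. With the 2 libraries of each guide summed none of the 10 genes was called in any of these 3 comparisons with control. Without both libraries of control guide 1 none was called in them either.

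**Figure D1:**
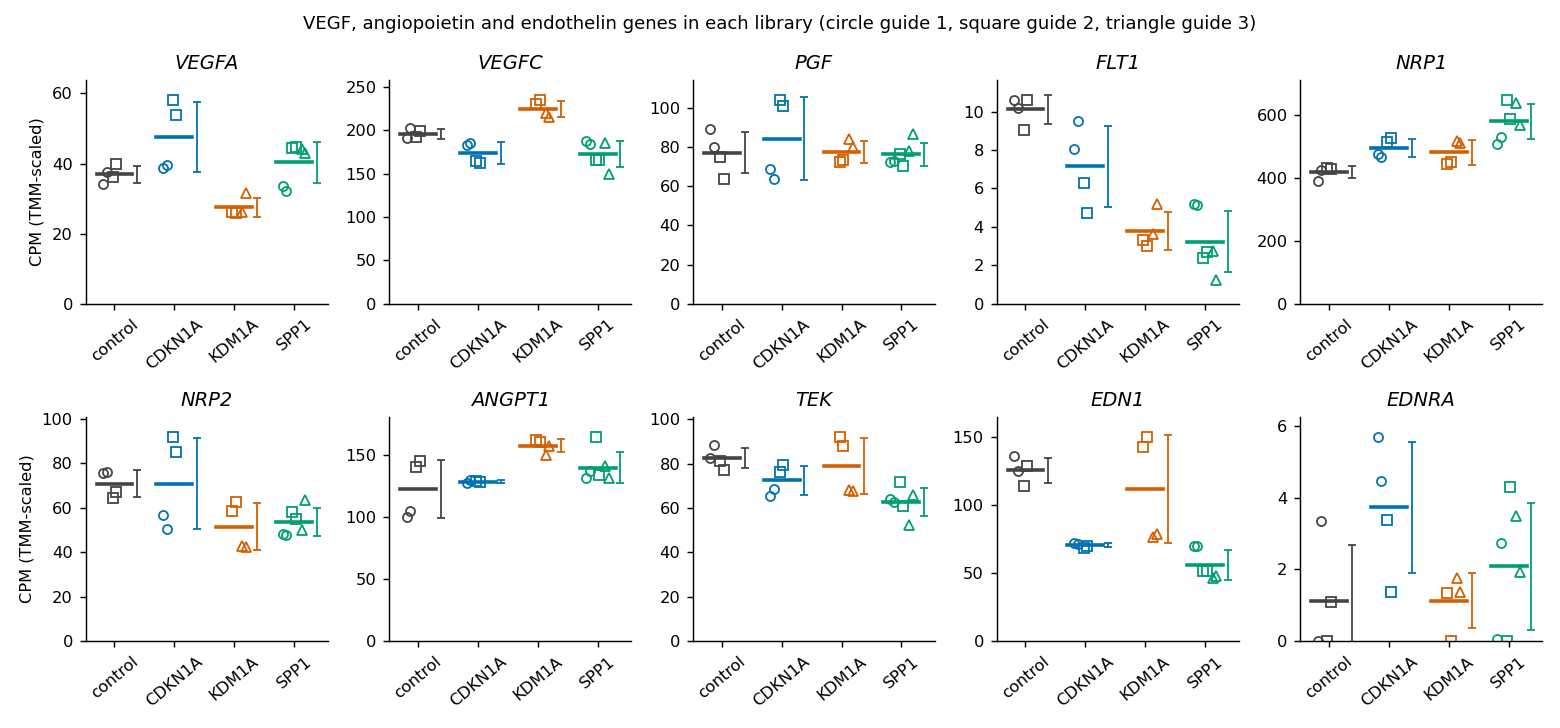
Level of each of the 10 genes in every library, in CPM (linear axis from 0), by group. Circles, squares and triangles are libraries of guides 1, 2 and 3, the horizontal line is the group mean and the bar beside it the SD (n = 4, 4, 4 and 6). EDN1 sits at 68.6 to 72.2 CPM in the CDKN1A libraries, below all controls, and forms a high and a low pair in the KDM1A libraries.

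Of the ligands, VEGFA (ENSG00000112715, GRCh38 chr6:43770184-43786487), the central growth factor of vessel sprouting, was not called against control in any group. It read 34.2, 37.5, 36.1 and 39.8 CPM in the control libraries, 38.6, 39.6, 58.1 and 53.9 CPM with CDKN1A guides and 26.3, 25.8, 26.3 and 31.6 CPM with KDM1A guides, in the order guide and then replicate. With SPP1 guides the lowest, median and highest values were 32.3, 43.5 and 44.7 CPM. All 4 KDM1A libraries were below all controls, whereas the CDKN1A and SPP1 libraries split by guide. The log2 fold changes were 0.36 ± 0.13 (SE), -0.42 ± 0.13 and 0.12 ± 0.12 for CDKN1A, KDM1A and SPP1 guides. The KDM1A value missed the threshold with an adjusted p of 0.0525, and 12 of 34 alternative analyses called it.

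Compared with each other, the targeted groups differed in VEGFA. It was higher in the CDKN1A than in the KDM1A libraries by 0.79 ± 0.13 and lower in the KDM1A than in the SPP1 libraries by -0.55 ± 0.12, and both differences were called, in 33 and 31 of 33 alternative analyses. Guide 2 against CDKN1A gave a higher level than guide 1 by 0.52 ± 0.08, and guides 2 and 3 against SPP1 gave higher levels than guide 1 by 0.44 ± 0.08 and 0.4 ± 0.08. These differences between guides were called too. With a transcript length offset all 3 lost their call, and the CDKN1A value was 0.22. Within these groups the 2 libraries of a guide lay close together. The CDKN1A values of VEGFA fell into pairs by guide. SPP1 guide 1 formed a lower pair, while SPP1 guides 2 and 3 lay together, with guide 3 against guide 2 at -0.03 ± 0.08, not called.

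VEGFC (ENSG00000150630, chr4:176683538-176792727), the ligand of lymphatic vessel growth, read 191, 203, 192 and 199 CPM in the controls. It was 183, 186, 165 and 162 CPM with CDKN1A guides, 230, 235, 220 and 215 CPM with KDM1A guides, and 150 to 188 CPM (median 175) with SPP1 guides. Every CDKN1A and SPP1 library was thus below every control and every KDM1A library above, by small amounts. The log2 fold changes against control, -0.17 ± 0.07, 0.2 ± 0.07 and -0.18 ± 0.06, were not called. Between the groups, VEGFC was lower with CDKN1A than with KDM1A guides by -0.37 ± 0.07 and higher with KDM1A than with SPP1 guides by 0.38 ± 0.06, and these were called, also in all 33 alternatives of each. VEGFA differed in the opposite direction in both comparisons. Over the 18 libraries the log2 levels of VEGFA and VEGFC had a Pearson r of -0.854 and a Spearman rho of -0.829, a description over libraries that share groups and guides. VEGFC-202 held 99.0 to 99.3% of the gene's counts in the group means, so its value does not rest on how reads were divided among transcripts.

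PGF (ENSG00000119630, chr14:74941834-74955784), a ligand of FLT1 that does not bind KDR, was not called in any comparison of groups. It read 89, 80.3, 75.1 and 63.9 CPM in the controls, 68.8, 63.7, 104 and 101 CPM with CDKN1A guides, 72.5, 73.2, 84.1 and 79.8 CPM with KDM1A guides and 70.4 to 86.9 CPM (median 74.8) with SPP1 guides. The group means were 77.1 ± 10.5 (SD, n = 4), 84.3 ± 21, 77.4 ± 5.52 and 76.2 ± 5.9 (n = 6) CPM. Its CDKN1A libraries fell into pairs by guide, with guide 2 above guide 1 by 0.63 ± 0.08 on the log2 scale, a called difference.

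The receptor FLT1 (ENSG00000102755, chr13:28300344-28495145) fell in the KDM1A and SPP1 groups. Its control libraries read 10.6, 10.2, 9.05 and 10.6 CPM, close together. The CDKN1A libraries read 8.08, 9.53, 6.28 and 4.72 CPM, the KDM1A libraries 3.33, 2.99, 3.64 and 5.21 CPM, and the SPP1 libraries 5.17, 5.15, 2.38, 2.70, 2.73 and 1.25 CPM. All KDM1A and SPP1 libraries and 3 of 4 CDKN1A libraries were below every control. The log2 fold changes were -1.41 ± 0.29 with KDM1A guides (37.7% of control) and -1.61 ± 0.26 with SPP1 guides (32.7%), both called, and -0.49 ± 0.28 with CDKN1A guides, not called.

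FLT1 was also higher with CDKN1A than with KDM1A guides by 0.92 ± 0.3 and than with SPP1 guides by 1.12 ± 0.27, and both differences were called. In 33 alternatives the first kept its call in 18 and the other in 31. Between KDM1A and SPP1 guides it differed by 0.21 ± 0.29, which was not called. Every guide gave a value below control: -0.2 and -0.87 for CDKN1A guides 1 and 2, -1.68 and -1.18 for KDM1A guides 2 and 3, and -0.97, -1.99 and -2.3 for SPP1 guides 1 to 3. SPP1 guide 3 was below guide 1 by -1.34 ± 0.27, a called difference. On average guide 1 left the least SPP1 mRNA (39.6% against 66.8% with guide 3), but the libraries of guide 3 differed. In replicates 1 and 2 of guide 3 SPP1 read 63.0 and 21.7 CPM, beside 24.2 and 26.9 CPM with guide 1. FLT1 read 2.73 and 1.25 CPM in these guide 3 libraries and 5.17 and 5.15 CPM with guide 1. Guide 2 left the most SPP1 mRNA (79.7%), at 47.4 and 55.3 CPM in replicates 1 and 2. FLT1 read 2.38 and 2.70 CPM in these guide 2 libraries. A relation of FLT1 to the SPP1 mRNA left was not tested. Whether the guides differ in effects outside their target was not tested. The FLT1 calls were lost without control guide 1, where the values were -1.36 ± 0.36 and -1.57 ± 0.34 with adjusted p-values of 0.0513 and 0.0718, and the KDM1A call was lost without KDM1A guide 2.

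Set apart by transcript, the FLT1 counts of the controls lay mostly on the forms with the short coding ends shown above. FLT1-202, FLT1-204, FLT1-207 and FLT1-209 together held 67.6 ± 2.5% of the gene's counts in the controls (SD, n = 4), 72.2 ± 4.03% with CDKN1A guides, 47.8 ± 5.36% with KDM1A guides and 48.8 ± 15.2% with SPP1 guides (n = 6). The SPP1 mean describes none of its guides well: the libraries of guide 1 were at 64.6 and 69.3%, about the control range of 65.5 to 70.9%, and those of guides 2 and 3 at 36.0, 50.4, 37.4 and 34.8%, below every control. Within these forms FLT1-204 and FLT1-207 led, with 40.1 and 48.5 estimated counts in the mean control library. FLT1-207 was at 34.4, 6.17 and 6.21 counts in the CDKN1A, KDM1A and SPP1 groups, and FLT1-204 at 40.3, 10.8 and 14.8 counts. Counts of single transcripts are not scaled to library size here. The SPP1 mean of FLT1-204 also joins 34.4 and 33.7 counts with guide 1 and 0 to 9.2 counts with guides 2 and 3. FLT1-209, which shares its coding sequence with FLT1-207 up to the last bases shown above, was at 7.88 counts in the controls and 9.38 with KDM1A guides, and in the 2 KDM1A libraries where FLT1-207 was listed at 0 it held 14.2 and 23.3 counts. Taken as a pair, so that the division of reads between them drops out, FLT1-207 and FLT1-209 were at 56.4 ± 12.3 counts in the controls (SD, n = 4), 35.5 ± 15.6 with CDKN1A guides, 15.6 ± 5.87 with KDM1A guides and 10.8 ± 7.21 with SPP1 guides (n = 6).

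Per length, the short forms summed to 2.37, 2.88, 2.16 and 2.85 TPM in the control libraries and to 2.17, 3.13, 2.14 and 1.33 TPM with CDKN1A guides. With KDM1A guides they summed to 0.495, 0.599, 0.688 and 0.866 TPM, and with SPP1 guides to 1.48, 1.59, 0.404, 0.562, 0.334 and 0.094 TPM. All KDM1A and SPP1 libraries were below all controls. The full-length FLT1-201 was at 0.657 ± 0.0304 TPM in the controls and lower in each other group, at 0.345 ± 0.117, 0.332 ± 0.12 and 0.227 ± 0.108 TPM, with no library of these groups inside the control range of 0.619 to 0.692 TPM. The short forms of the CDKN1A libraries had a mean of 2.19 ± 0.739 TPM against 2.57 ± 0.357 TPM in the controls. They did not separate clearly by guide, with 2.17 and 3.13 TPM for guide 1 and 2.14 and 1.33 TPM for guide 2. The lowest control, at 2.16 TPM, lay between the nearest values of guides 1 and 2. FLT1-201 was below every control with both guides. Transcripts that start inside the gene were at 0.372 ± 0.232 TPM in the controls. Their means were not lower with CDKN1A, KDM1A and SPP1 guides, at 0.566 ± 0.408, 0.621 ± 0.127 and 0.565 ± 0.242 TPM. The ranges overlapped, on group means of 3.98 to 7.4 counts. They held 2.78 ± 1.77% of the gene's counts in the controls and 6.5 ± 4.39, 12.9 ± 4.74 and 18.4 ± 13.7% in these groups. These divisions are kallisto's estimates from reads that the transcripts largely share, on 14.6 to 42.5 counts of FLT1-201 in the group means, and were not tested.

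**Figure D2:**
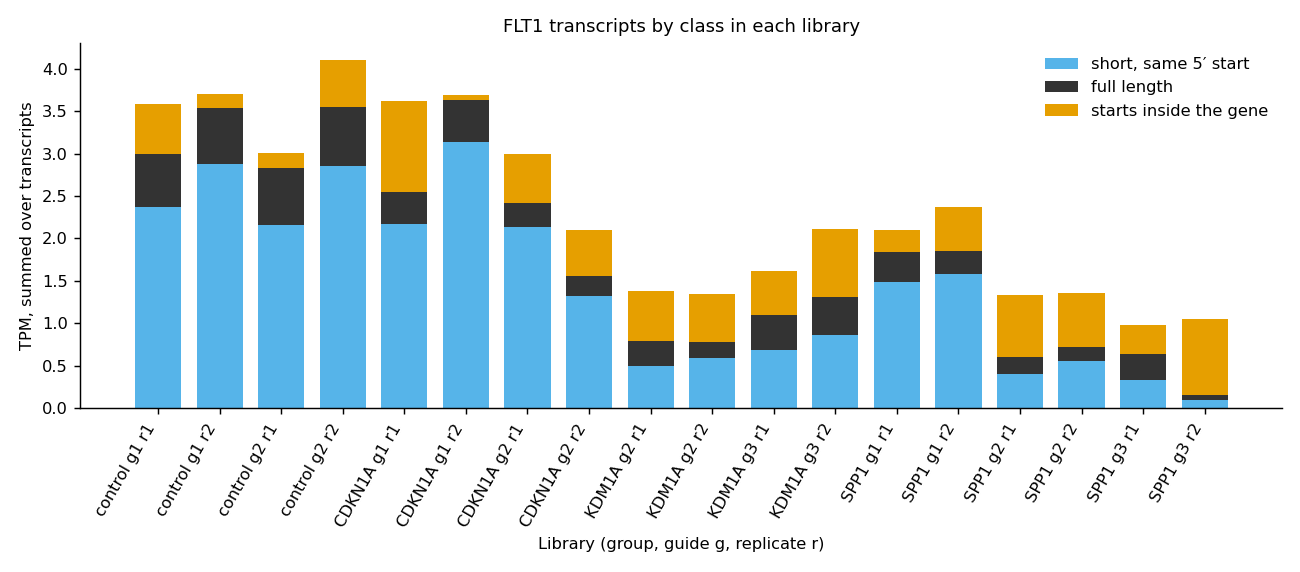
FLT1 level in each library in TPM (linear axis from 0), stacked by class of transcript: short forms that share the 5′ start, the full-length transcript and transcripts that start inside the gene. The short forms stand at 2.16 to 2.88 TPM in the controls and at 0.495 to 0.866 TPM in the KDM1A libraries.

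Of the co-receptors, NRP1 (ENSG00000099250, chr10:33177492-33336262) rose with the SPP1 guides. It read 392, 424, 431 and 430 CPM in the controls, 477, 467, 514 and 528 CPM with CDKN1A guides and 446, 450, 518 and 513 CPM with KDM1A guides. The SPP1 libraries read 508, 531, 648, 587, 640 and 570 CPM. Every library with a guide against 1 of the 3 targets was above every control. The log2 fold change was 0.47 ± 0.07 with SPP1 guides (138% of control), which was called, and 0.24 ± 0.08 and 0.2 ± 0.08 with CDKN1A and KDM1A guides, which were not. NRP1 was also lower with CDKN1A and with KDM1A guides than with SPP1 guides, by -0.22 ± 0.07 and -0.27 ± 0.07, and both were called, in 15 and 28 of 33 alternatives. Without control guide 1 the SPP1 value was 0.43 ± 0.09 and not called (adjusted p = 0.0718).

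NRP2 (ENSG00000118257, chr2:205681990-205798133), the neuropilin of lymphatic vessels and veins, was not called against control. Its libraries read 75.8, 75.9, 64.2 and 67.1 CPM in the controls, 56.5, 50.5, 91.6 and 84.9 CPM with CDKN1A guides, 58.4, 62.4, 42.8 and 42.5 CPM with KDM1A guides and 47.5 to 63.5 CPM (median 52.5) with SPP1 guides. The KDM1A and SPP1 libraries were all below the controls, and the 2 CDKN1A guides lay on opposite sides of them. The log2 fold changes were 0 ± 0.16, -0.46 ± 0.16 and -0.4 ± 0.15. The guides of a target differed by 0.72 ± 0.09 (CDKN1A guide 2 over guide 1) and by -0.5 ± 0.09 (KDM1A guide 3 over guide 2), and both differences were called.

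Of the angiopoietin pair, ANGPT1 (ENSG00000154188) rose with the KDM1A guides, against controls that differed among themselves. It read 100, 105, 140 and 145 CPM in the controls, 127, 130, 129 and 128 CPM with CDKN1A guides, 162, 160, 150 and 157 CPM with KDM1A guides and 131 to 164 CPM (median 136) with SPP1 guides. The KDM1A libraries were above all controls, while the controls of guide 1 lay below those of guide 2 and the CDKN1A libraries between them. The log2 fold changes were 0.07 ± 0.1, 0.36 ± 0.09 (called) and 0.19 ± 0.09. The last was -0.03 without control guide 1 and 0.45, then called, without control guide 2. Control guide 2 was above control guide 1 by 0.47 ± 0.08, a called difference larger than that of the KDM1A guides. Without control guide 1 the KDM1A value was 0.14 ± 0.07 and not called, and without control guide 2 it was 0.63. The call was also lost without either replicate of control guide 1 or of KDM1A guide 2, without either KDM1A guide, and with the 2 groups fitted alone. With CDKN1A guides ANGPT1 was lower than with KDM1A guides by -0.29 ± 0.09, called here and in 13 of 33 alternatives.

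TEK (ENSG00000120156, chr9:27109141-27230175), the receptor of ANGPT1, fell with the SPP1 guides. It read 82.7, 88.2, 81.3 and 77.2 CPM in the controls, 65.5, 68.7, 76.3 and 79.2 CPM with CDKN1A guides and 91.8, 87.8, 68.1 and 67.8 CPM with KDM1A guides. The SPP1 libraries read 63.9, 62.5, 71.7, 61.0, 52.4 and 65.8 CPM, all below the controls. The log2 fold change was -0.39 ± 0.09 with SPP1 guides (76.3% of control), which was called, and -0.19 ± 0.1 and -0.06 ± 0.1 with CDKN1A and KDM1A guides. TEK was higher with KDM1A than with SPP1 guides by 0.33 ± 0.09, and KDM1A guide 3 was below guide 2 by -0.4 ± 0.09, and both were called. Without KDM1A guide 2 the difference between KDM1A and SPP1 guides was 0.12 and lost its call. The call against control was lost without control guide 1 (-0.34 ± 0.12, adjusted p = 0.217), without replicate 2 of control guide 1 alone and without SPP1 guide 3. The TEK level of these cells, 29.7 TPM in the controls, stood beside low endothelial markers, of which EMCN was the highest in the controls at 1.8 TPM.

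EDN1 (ENSG00000078401, chr6:12290363-12297194), the constrictor peptide, fell in the CDKN1A and SPP1 groups. The controls read 136, 125, 114 and 129 CPM. The CDKN1A libraries read 72.2, 71.2, 68.6 and 70.0 CPM, and the SPP1 libraries 70.1, 70.4, 51.7, 52.0, 46.2 and 47.7 CPM, all below the controls. The KDM1A libraries read 143 and 150 CPM with guide 2, above all controls, and 77.0 and 78.8 CPM with guide 3, below all controls. All counts of the gene lay on the transcript EDN1-201.

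The log2 fold change of EDN1 was -0.84 ± 0.18 with CDKN1A guides (55.9% of control) and -1.16 ± 0.16 with SPP1 guides (44.8%), both called, and -0.17 ± 0.18 with KDM1A guides, where the mean of 112 ± 39.6 CPM (SD, n = 4) describes neither guide. By guide, the values against both control guides were -0.81 ± 0.06 and -0.86 ± 0.06 for CDKN1A guides 1 and 2, 0.22 ± 0.05 and -0.69 ± 0.06 for KDM1A guides 2 and 3, and -0.84 ± 0.06, -1.28 ± 0.06 and -1.42 ± 0.06 for SPP1 guides 1 to 3. The difference between the KDM1A guides, -0.91 ± 0.06, was called. The guides left 62.6% (guide 2) and 43.4% (guide 3) of the KDM1A mRNA, and the part of this difference in that of EDN1 was not tested. SPP1 guides 2 and 3 were below guide 1 by -0.44 ± 0.07 and -0.58 ± 0.07, both called. They left more of the SPP1 mRNA than guide 1, 79.7% and 66.8% against 39.6%. The part of this difference in that of EDN1 was not tested either.

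Between groups, EDN1 was lower with CDKN1A than with KDM1A guides by -0.67 ± 0.18 and higher with KDM1A than with SPP1 guides by 0.99 ± 0.16, and both were called, while CDKN1A and SPP1 guides differed by 0.32 ± 0.17, which was not. Without KDM1A guide 2 the called differences were -0.14 and 0.47, and neither was called. Left out in turn, any 1 of the 4 CDKN1A libraries or of the 2 libraries of control guide 1 ended the CDKN1A call, as did either CDKN1A guide or either control guide left out whole, at values of -0.88 to -0.79 over all alternatives. Without control guide 1 the SPP1 value was -1.11 ± 0.21 and not called (adjusted p = 0.0618), and without KDM1A guide 2 the remaining KDM1A guide was called at -0.69.

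EDNRA (ENSG00000151617, chr4:147480917-147544954), the receptor of EDN1, was too low to compare. Its estimated counts ran from 0 to 90, and its levels were 0, 3.34, 0 and 1.09 CPM in the controls, 5.68, 4.47, 3.39 and 1.37 CPM with CDKN1A guides, 1.35, 0, 1.75 and 1.38 CPM with KDM1A guides and 0 to 4.3 CPM (median 2.33) with SPP1 guides. Libraries of the same guide differed as much as groups did, and no log2 fold change (1.77 ± 0.96, 0 ± 1.03 and 0.91 ± 0.93) was called. Each level is a sum over all matched transcripts of the gene. Why some libraries were listed at 0 was not tested, so these levels are uncertain.

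**Figure D3:**
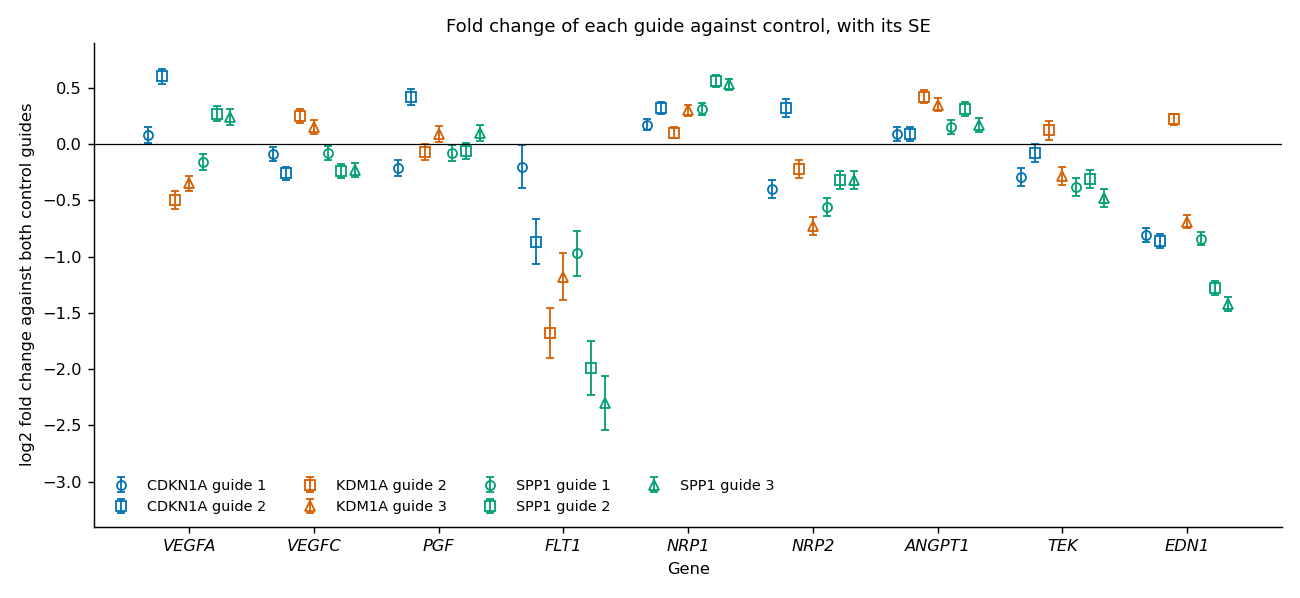
Log2 fold change of each guide against both control guides with its SE, from the fit by guide, for 9 genes (EDNRA is left out for its low counts). Each colour is a target and each symbol a guide. EDN1 lies at 0.22 with KDM1A guide 2 and at -0.69 with guide 3, and FLT1 lies below 0 for every guide, down to -2.3 with SPP1 guide 3.

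Counted over the groups with guides against a target, 5 of the 10 genes were called between CDKN1A and KDM1A guides, where 15.0% of all genes were, 2 between CDKN1A and SPP1 guides (12.1% of all genes) and 5 between KDM1A and SPP1 guides (11.9%). Between the guides of 1 target, 1 of the 10 was called for control guides (1.35% of all genes), 3 for CDKN1A guides (1.28%), 3 for KDM1A guides (6.17%), and 2, 3 and 0 for SPP1 guides 2 and 1, 3 and 1, and 3 and 2 (2.40%, 2.81% and 0.215%). The gene selection used these sums as well, so the counts are descriptions. KDM1A and SPP1 guides differed in 5 genes with opposite sides for the ligands: VEGFC and EDN1 were higher and VEGFA lower with KDM1A guides.

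Over all 18 libraries, NRP1 and EDN1 had the strongest relation among the 10 genes, with a Pearson r of -0.905 and a Spearman rho of -0.872. VEGFA and VEGFC followed at -0.854, as given above, then TEK and EDN1 at 0.834 and FLT1 and NRP1 at -0.74. Libraries of a guide and of a group move together in these values, so they are descriptions. Of 11490 genes, those most like EDN1 over the libraries were FOXE1 (r = 0.949), CTPS1 (0.939) and KLF2 (0.937), and those most like NRP1 were CLMP (0.955), TGFBR2 (0.943) and TOP1 (0.897). FLT1 was most like EIF1 (0.902), NRIP1 (0.898) and ABL2 (0.891), VEGFA like NAMPT (0.946), VEGFC like LRRN3 (0.956), TEK like ASF1B (0.905), ANGPT1 like SPART (0.939) and NRP2 like CGB7 (0.902). PGF and EDNRA reached at most 0.763 (UGDH) and 0.738 (ZNF280C).

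The wider pathways were described by lists of 77 other genes. In the semaphorin list, the other ligands of neuropilins and their plexin receptors, 11 of 12 genes were tested. With KDM1A guides 3 rose and 0 fell: the secreted semaphorins SEMA3A (1.35 ± 0.14, adjusted p = 5.19e-06), SEMA3D (1.08 ± 0.16, 2.96e-04) and SEMA3E (1.07 ± 0.14, 9.39e-05). SEMA3A read 56.3 to 67.3 CPM in the KDM1A libraries and 18.7 to 28.4 CPM in the controls. With SPP1 guides SEMA3A (0.52 ± 0.13, 0.0291) and the receptor PLXNA4 (0.72 ± 0.2, 0.0428) rose and PLXNA2 fell (-0.32 ± 0.08, 0.0244). With CDKN1A guides none of the 11 was called. Over 34 alternatives SEMA3A and SEMA3D kept their KDM1A call in all and SEMA3E in 33, while with SPP1 guides SEMA3A and PLXNA2 kept theirs in 26 each and PLXNA4 in 11. The medians of the list were -0.13, 0.23 and 0.05 for CDKN1A, KDM1A and SPP1 guides.

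Among 7 tested of 8 regulators of the hypoxia response, which controls VEGFA transcription, EPAS1 (the transcription factor HIF-2 alpha) fell by 0.58 with KDM1A guides (adjusted p = 0.00236) and by 0.59 with SPP1 guides (0.00431), from 63.6 to 76.0 CPM in the controls to 42.4 to 51.5 and 35.9 to 56.9 CPM. VHL, which marks such factors for destruction, rose by 0.28 ± 0.06 (0.00298) and 0.19 ± 0.05 (0.0392), and HIF1A fell by 0.25 with KDM1A guides (0.0165). None was called with CDKN1A guides. The EPAS1 calls were kept in 32 and 31 of 34 alternatives, those of VHL in 31 and 12, and that of HIF1A in 26. The list medians were 0.06, 0.02 and 0.02. VEGFA itself, as given above, was not called in these comparisons.

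Among 12 tested of 14 secreted angiogenic factors and inhibitors, FGF2, a growth factor of endothelial cells and fibroblasts, fell by 0.47 with KDM1A (adjusted p = 0.0188) and by 0.51 with SPP1 guides (0.0124). PDGFA, a growth factor of mesenchymal cells, fell by 0.68 (0.00603) and 0.48 (0.0427). With KDM1A guides the angiogenesis inhibitor SERPINF1 rose by 0.84 ± 0.18 (0.00476), from 2.51 ± 0.295 to 4.49 ± 1.05 CPM (SD, n = 4), and the vessel dilator ADM fell by 0.44 (0.048). Of 34 alternatives 25 and 30 kept the FGF2 calls, 31 and 21 those of PDGFA, 30 that of SERPINF1 and 14 that of ADM. The SERPINF1 call was lost with the transcript length offset, among others, and its lowest value over the alternatives was 0.36. Per length, SERPINF1 was at 6.85 ± 0.874 TPM in the controls and 8.78 ± 3.08 TPM with KDM1A guides, with overlapping ranges. None was called with CDKN1A guides, and the list medians were -0.04, 0.1 and -0.18.

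In the list of other angiopoietin pathway genes, which also holds angiopoietin-like genes, 6 of 8 were tested. The angiopoietin ANGPT2 was not called, and ANGPT4 was not tested. The angiopoietin-like gene ANGPTL4, which encodes a secreted lipase inhibitor, rose in all 3 comparisons, which share the controls. It rose by 0.78 ± 0.16 with CDKN1A (adjusted p = 0.0202), 0.54 ± 0.16 with KDM1A (0.0466) and 0.55 ± 0.15 with SPP1 guides (0.0421). ANGPTL2, also angiopoietin-like, fell by 0.89 with KDM1A guides (0.0456). Of 34 alternatives 27, 17 and 20 kept the ANGPTL4 calls and 11 that of ANGPTL2. The list medians were -0.03, -0.2 and -0.27. In the endothelin list only ECE1, which cuts the EDN1 precursor, and MME, which degrades endothelins, were tested of 7 genes. MME rose with CDKN1A guides (0.36 ± 0.08, 0.0309) and KDM1A guides (0.45 ± 0.08, 0.00152), and ECE1 was within 0.1 of control on the log2 scale in each group and not called. The MME calls were kept in 24 and 32 of 34 alternatives. The medians of the pair were 0.13, 0.25 and -0.01.

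The other VEGF family genes were nearly silent apart from VEGFB. VEGFB and KDR were the 2 tested of 4 and neither was called, with medians of 0.22, -0.38 and -0.14. Of 8 genes of VEGFC processing 5 were tested, and the protease ADAMTS3, which activates VEGFC, fell by 0.46 with SPP1 guides (adjusted p = 0.0356), with list medians of -0.22, -0.18 and -0.21. Of 16 signal transducers of these receptors, all tested, the phospholipases PLCB3 (0.17 ± 0.05, 0.0379, KDM1A guides) rose and PLCB4 (-0.4 ± 0.1, 0.0254, SPP1 guides) fell, with list medians of 0.06, 0.02 and 0.01. Of 34 alternatives 17 kept the ADAMTS3 call, 23 that of PLCB3 and 25 that of PLCB4.

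**Figure D4:**
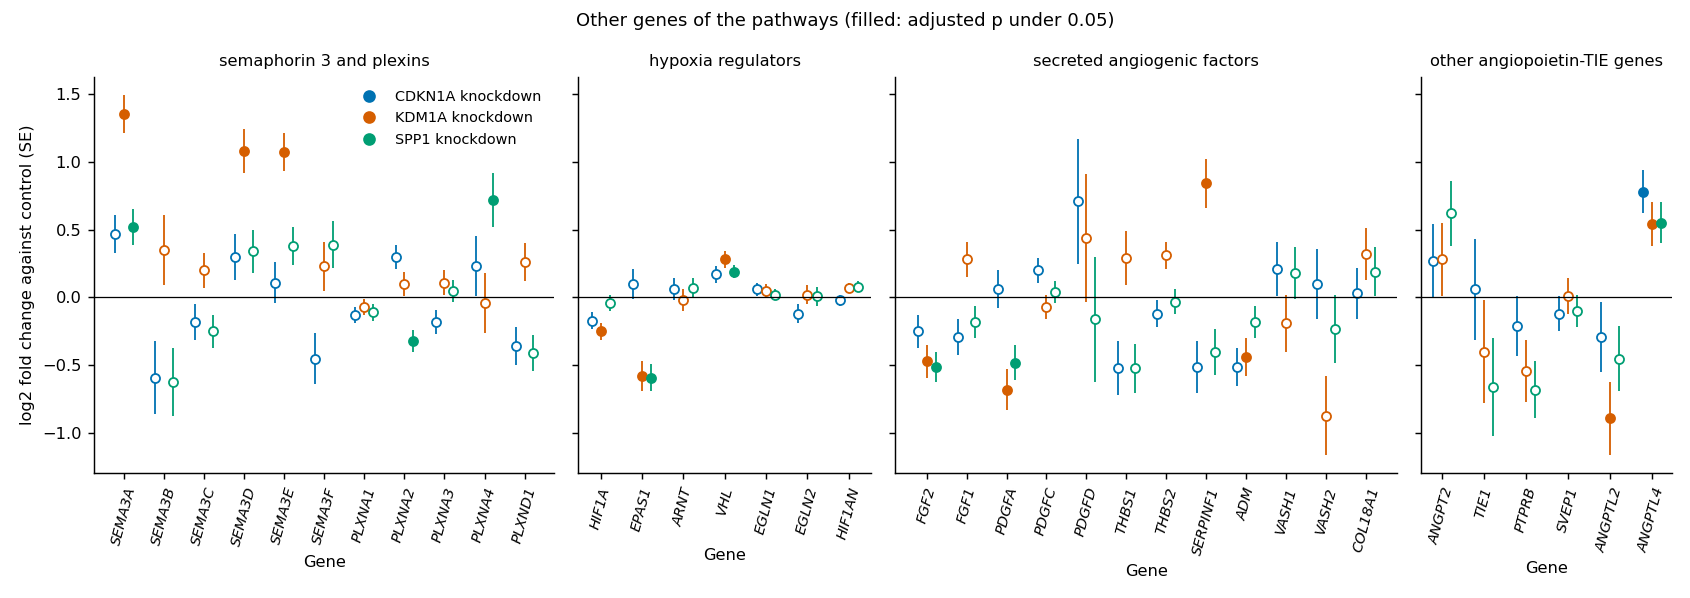
Log2 fold change against control with its SE for the tested genes of 4 pathway lists, by target (colour). Filled points have an adjusted p under 0.05. SEMA3A, SEMA3D and SEMA3E stand at 1.07 to 1.35 with KDM1A guides, and EPAS1 at -0.58 and -0.59 with KDM1A and SPP1 guides.

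Markers of cells that surround vessels differed in range between the groups. The 8 pericyte and smooth muscle markers, of which 7 had 10 counts or more in some library, summed to 503 to 660 CPM in the controls, 495 to 539 CPM with CDKN1A guides, 580 to 826 CPM with KDM1A guides and 465 to 487 CPM with SPP1 guides. Of the 6 that were tested, 1 was called in each comparison: NOTCH3 fell with CDKN1A guides (-1 ± 0.18, adjusted p = 0.00853), RGS5 rose with KDM1A guides (1.97 ± 0.27, 1.05e-04) and CSPG4 fell with SPP1 guides (-0.4 ± 0.09, 0.0164). The others were not called and lay on both sides of 0: with KDM1A guides MCAM was at 0.38 ± 0.14 and KCNJ8 at -0.34 ± 0.14, and the list medians were -0.105, 0.26 and -0.145 for CDKN1A, KDM1A and SPP1 guides. MYH11 and DES, which define smooth muscle, read 0.546 and 0.105 CPM in the controls. The part of these markers in the results for ANGPT1, TEK, NRP1 and EDN1 was not tested.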

How the data were processed

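Poly(A) RNA libraries of hiF-T cells were made with NEBNext kits, per the labels' protocols. The authors deposited 1 kallisto table per library that lists an effective length, an estimated count and a TPM for each of 188753 Ensembl transcripts, per the file headers. The submitters' processing notes name kallisto and the build GRCh38 (hg38). Its version and settings, the transcriptome release and any strand setting were not given in the sources used here. As deposited, the estimated counts carry fractions and no scaling to library size, and the TPM are scaled to transcript length and library total. Identifiers in GENCODE 29 assigned 169754 transcripts (89.9%) to 35544 genes; the unmatched held 2.51 to 2.63% of counts and were left out. Totals of 11907197 to 17016094 counts per library limit the precision of low genes such as FLT1 and EDNRA.

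Gene sums were rounded and tested with edgeR 4.0.16 in R 4.3.3 (TMM scaling, filterByExpr with a count minimum of 10, quasi-likelihood F test, Benjamini-Hochberg adjustment over 13519 genes): 1 fit by group with 14 residual degrees of freedom, and 1 by guide (9 guides) with 9. Levels are TMM-scaled CPM; relations used log2 CPM with a prior count of 2. The test was also run on simulated counts without guide effects, which cannot check it for libraries that share a guide. Libraries of the same replicate number showed no clear shared shift. Over 36 pairs of guides, the deviations of replicate 1 from its guide mean correlated at -0.12 to 0.07. Whether the replicates were handled as pairs cannot be settled from this. Alternatives covered scaling, filter, replicate block, a length offset, DESeq2 1.42.0, 2 groups alone, summed guides and each library or guide left out.

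The genes and lists were chosen with earlier results of these data known. The text names all 10 genes, the 3 targets, up to 4 called genes per pathway list by smallest p, and for each gene up to 3 genes of highest correlation, taken from those whose mean log2 CPM reached 1. The marker genes named with values and ADM and HIF1A were chosen from the lists after their values were seen.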

Additional observations from a re-analysis of the deposited data

Results flagged for a closer look

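Several of the 10 genes differed between guides against the same target, by a test of that difference in edgeR's fit by guide. Of 60 such comparisons 12 were called; over all genes, 1.35% were called between the control guides, 1.28% between CDKN1A guides, 6.17% between KDM1A guides, and 2.40%, 2.81% and 0.215% between SPP1 guides 2 and 1, 3 and 1, and 3 and 2. ANGPT1 was higher with control guide 2 than with control guide 1 by 0.47 on the log2 scale. Among CDKN1A guides, guide 2 was above guide 1 by 0.52 for VEGFA, 0.63 for PGF and 0.72 for NRP2. Among KDM1A guides, guide 3 against guide 2 gave -0.5 for NRP2, -0.4 for TEK and -0.91 for EDN1. Among SPP1 guides, guide 2 against guide 1 gave 0.44 for VEGFA and -0.44 for EDN1, and guide 3 against guide 1 gave -1.34 for FLT1, 0.4 for VEGFA and -0.58 for EDN1. With a transcript length offset the differences of ANGPT1, VEGFA, TEK and FLT1 lost their call, and those of PGF, NRP2 and EDN1 kept it.

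A single library stood apart from its group for 2 genes, of 40 combinations of gene and group examined; chance alone marks about 1 in 20. VEGFA read 31.6 CPM in replicate 2 of KDM1A guide 3, the highest of its group, and ANGPT1 read 164 CPM in replicate 1 of SPP1 guide 2, the highest of its group.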

How the results depend on the processing

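Over 34 alternatives the 30 fold changes of the 10 genes against control gave 1020 values, in which 0 called fold changes changed sign. Of those not called 7 did. Of these, 6 lay within their SE of 0, and ANGPT1 with SPP1 guides went from 0.19 to -0.03 without control guide 1. Main values that round to 0 have no sign and were left out of this count. These were NRP2 with CDKN1A guides, which ran from -0.4 to 0.33, and EDNRA with KDM1A guides, from -0.84 to 1.69. Summing the libraries of a guide called 1, 162 and 1 genes against control for CDKN1A, KDM1A and SPP1 guides, instead of 271, 1225 and 738, and 0, 0 and 0 of the 10 instead of 1, 2 and 4. Without control guide 1 the counts were 42, 417 and 7, with 0, 0 and 0 of the 10. The length offset gave 71, 570 and 304 genes against control, 987, 765 and 762 between targeted groups (instead of 2026, 1634 and 1606), and 29 for control guides (instead of 183), 74 for CDKN1A (173), 308 for KDM1A (834), and 80, 91 and 5 for SPP1 guides 2 and 1, 3 and 1, and 3 and 2 (324, 380 and 29). The cause was not tested. With the replicate block 172 genes were called for CDKN1A and 15 between SPP1 guides 3 and 2; it changed no call of the 10 genes against control, and ended the calls of FLT1 and ANGPT1 between CDKN1A and KDM1A guides. Between CDKN1A and SPP1 guides, PGF was at 0.14 and, without CDKN1A guide 2, at -0.2, called in neither. Without the filter the guide comparisons gave 590 for control, 507 for CDKN1A, and 730, 1114 and 715 for SPP1. With 2 groups alone, 587 genes and 2 of the 10 were called for CDKN1A, 4 of the 10 for KDM1A and 390 genes for SPP1. DESeq2 called 561 genes and 2 of the 10 for CDKN1A and 4 of the 10 for KDM1A. Leaving out 1 library gave 54 to 446 genes and 0 to 1 of the 10 for CDKN1A, 774 to 1449 and 1 to 3 for KDM1A, and 184 to 753 and 3 to 4 for SPP1. Leaving out a guide gave, for CDKN1A, 127 genes without CDKN1A guide 1, 44 and 0 of the 10 without CDKN1A guide 2, and 434 genes without SPP1 guide 3. For KDM1A it gave 747 genes without KDM1A guide 2, and 1 of the 10 without KDM1A guide 3 but 4 without either CDKN1A guide. For SPP1 it gave 276 and 432 genes without SPP1 guides 2 and 3. Low counts limit FLT1 and its transcripts, and EDNRA most.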
